A study of Mus musculus with 2 samples.

Results

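Steroid hormone metabolism in the liver was followed through 10 genes of the deposited expression table, found by symbol: Cyp17a1, Hsd3b2, Hsd3b3, Hsd3b5, Hsd17b2, Hsd17b6, Hsd17b13, Srd5a1, Akr1c6 and Hsd11b1. All 10 symbols were found among the 21936 genes listed, each on 1 gene identifier. It comes from RNA sequencing of mouse liver, with 2 libraries in all and 1 for each genotype. The control library came from hnRNPK flox/flox mice. The knockout library came from hnRNPK flox/flox mice that also carried Alb-Cre. Both groups thus carry the floxed alleles, and the Cre recombinase separates them. The albumin promoter drives Cre in hepatocytes, and recombination can also reach bile duct cells through their shared precursor. The column headers call the libraries WT and KO and the series title writes hnRNPK-MKO, and the groups here follow the sample labels. The labels state neither strain, sex nor age, nor how many mice went into a library.

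Steroid hormones reach the liver in the blood and are largely inactivated there. Hydroxysteroid dehydrogenases interconvert hydroxyl and keto groups on the steroid, reductases remove ring double bonds, and the products are conjugated and excreted. Some of these enzymes instead regenerate an active hormone inside the cell, and Hsd11b1 is the textbook case. In mice several of the genes differ between male and female liver, because growth hormone is released in a different pattern in each sex.

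The control library held 12428975 counted reads and the knockout library 12176239. Hnrnpk, the targeted gene, had 2559 control and 1411 knockout reads, leaving the knockout library at 0.567 of the control (95% interval 0.531 to 0.605). With 1 library per genotype there was no replicate check and no test across samples. Intervals on ratios are exact Clopper-Pearson 95% intervals of the read split and cover counting error only. In place of a test, a size rule called a gene when the ratio of scaled counts was at least 2 or at most 0.5. It was applied to genes whose higher library reached 20 counts and FPKM 1, FPKM being the read count divided by gene length and by the library total. Of 9563 such evaluated genes 3.66% were past the rule, 2.53% as higher and 1.13% as lower in the knockout. In bulk liver, fewer cells of a type and less RNA per cell cannot be told apart. The hepatocyte markers were within the rule in 7 of 7 evaluated genes. Their log2 ratios ran from -0.28 for Cps1 to 0.47 for Apoa1, with Alb closest to even at 0.00.

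All 10 steroid metabolism genes were evaluated. Cyp17a1 was higher in the knockout library, Hsd3b3 was lower, and the other 8 were within 2-fold. These counts of 1 higher and 1 lower stand beside 2.53% and 1.13% of all evaluated genes. At a 1.5-fold limit 2 were higher and 3 lower, beside 6.16% and 5.37% of evaluated genes. The log2 ratios of the 10 genes ran from -1.01 to 2.0, with 5 above and 5 below 0. Their median was -0.02, and the median of all evaluated genes was -0.03. The counting interval left out a ratio of 1 for each of the 10, as it did for 46.8% of evaluated genes. Summed over the 10 genes the level differed little, with 30592 and 29692 reads and a summed FPKM of 1047 and 1075.

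**Figure D1:**
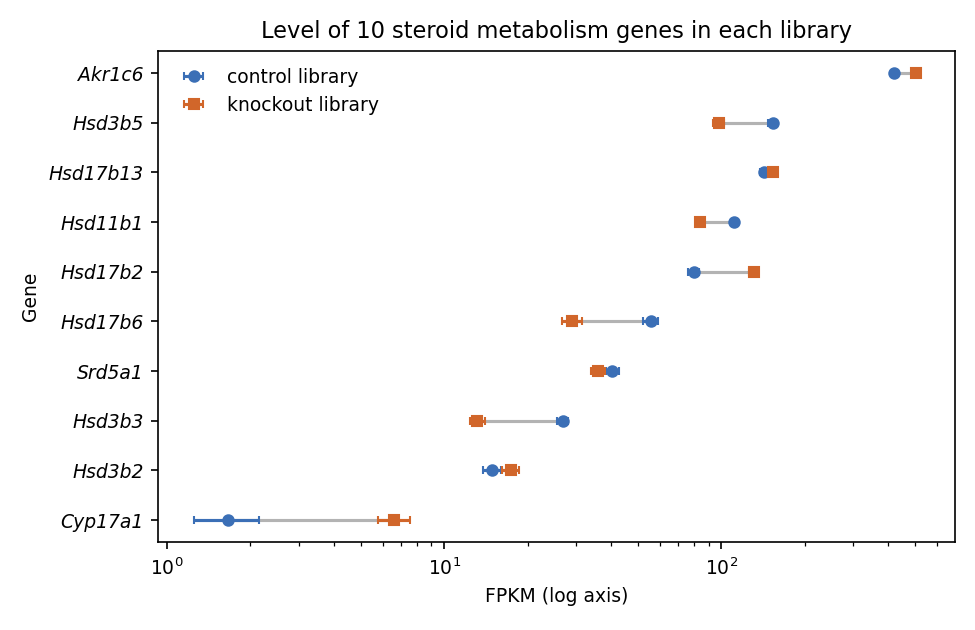
Deposited FPKM (horizontal log axis) of the 10 genes (vertical axis) in the control library (circles) and the knockout library (squares), with exact Poisson 95% intervals of the counts. A grey line joins both values of a gene, and Akr1c6 is highest in both libraries (420 and 506) while Cyp17a1 is lowest (1.66 and 6.61).

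The levels spanned a wide range. By FPKM the control order was Akr1c6, Hsd3b5, Hsd17b13, Hsd11b1, Hsd17b2, Hsd17b6, Srd5a1, Hsd3b3, Hsd3b2 and Cyp17a1. In the knockout the order was Akr1c6, Hsd17b13, Hsd17b2, Hsd3b5, Hsd11b1, Srd5a1, Hsd17b6, Hsd3b2, Hsd3b3 and Cyp17a1. Akr1c6 alone made up 40.1% of the summed FPKM of the 10 genes in the control and 47.1% in the knockout. Exact Poisson intervals of neighbours in these orders did not overlap in either library. The nearest neighbours in the control were Hsd3b5 (148 to 159) and Hsd17b13 (138 to 147).

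The order depends on the gene length used. FPKM divides by all annotated exon bases of a gene, which for Hsd3b3 are 6396 bases and include a 4766-base transcript annotated as non-coding. The longest protein-coding transcript of Hsd3b3 has 1533 bases. Per that length, in an alternative chosen after seeing the data, Hsd3b3 would stand at 112 in the control and 54.9 in the knockout, the sixth place in both. Hsd11b1, whose deposited length is 4251 bases and whose longest protein-coding transcript has 1623, would move to the second place in both (291 and 220). Akr1c6 stayed first and Cyp17a1 last. Ratios between the libraries do not change with the length used, except where a correction for gene length is applied.

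**Figure D2:**
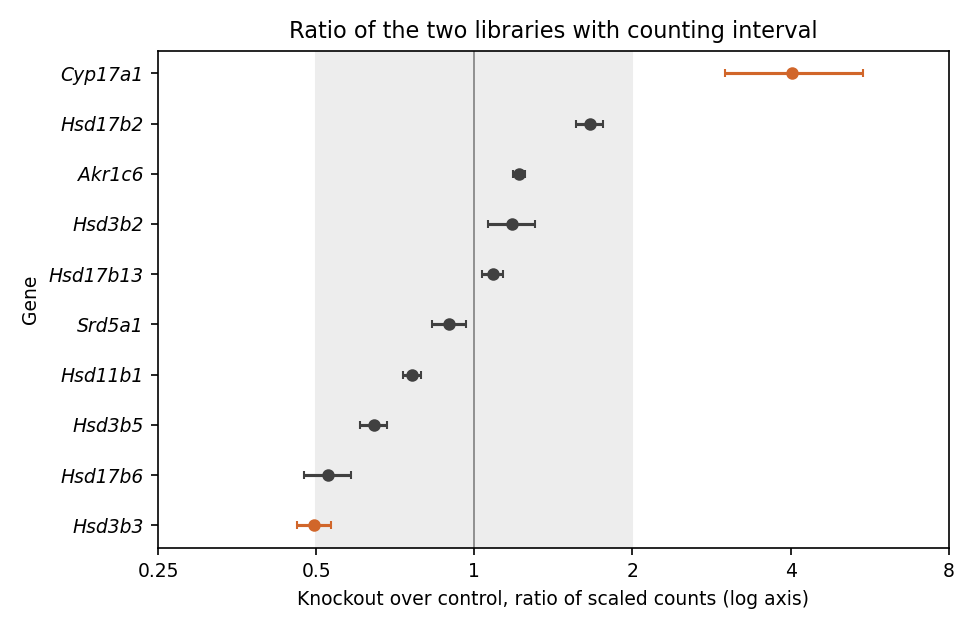
Ratio of knockout to control scaled counts (horizontal log axis) for each of the 10 genes (vertical axis) with exact Clopper-Pearson 95% intervals for counting error. Grey shading marks the range within 2-fold, and Cyp17a1 (4.02) and Hsd3b3 (0.496) lie outside it.

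Cyp17a1 encodes the microsomal P450 whose hydroxylase and lyase activities lead from progestogens to glucocorticoid and androgen precursors. The gene (ENSMUSG00000003555, mm10 chromosome 19, 46667165 to 46673172, minus strand) had 57 control and 223 knockout reads (FPKM 1.66 and 6.61). The knockout library was the higher, at 4.02 times the control (95% interval 3.0 to 5.48, log2 ratio 2.0). Even so, Cyp17a1 remained the lowest of the 10 genes, with Akr1c6 254 times as high in the control and 76.6 times in the knockout by FPKM. None of its annotated 50-base stretches occurs in another annotated gene, and none of its exon bases overlaps another gene.

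In the adrenal cortex Cyp17a1 acts among other steroidogenic genes, although mouse adrenals express little of it. Cyp11a1, which starts steroid synthesis by cleaving the cholesterol side chain, had 0 reads in both libraries. Cyp11b1, Cyp11b2 and the corticotropin receptor gene Mc2r also had 0 reads in both, where a count of 0 allows up to 3 by counting error alone. Overlap with other annotated genes was not checked for these genes, so a listed 0 need not mean absence. Star, the mitochondrial cholesterol carrier, had 34 and 20 reads, and the progesterone hydroxylase gene Cyp21a1 had 82 and 40 (log2 ratio -0.99). Of 3 evaluated adrenal cortex markers 0 were past the rule, the others being the lipoprotein receptor gene Scarb1 (1709 and 1724 reads) and Mrap (408 and 422). Akr1b7 had 0 and 2 reads. The aromatase gene Cyp19a1 was at 0 in both. The electron donors that serve Cyp17a1 and other microsomal P450s were abundant and near even. Por had 12854 and 10817 reads (log2 ratio -0.21), and Cyb5a 8731 and 8379 (-0.02).

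In a list of regulators of Cyp17a1 and related genes 10 of 10 evaluated were within 2-fold, with a median log2 ratio of -0.22. Nr0b2, a nuclear receptor that represses others, was at 173 and 306 reads (0.86), and Nr1d1, a clock repressor, at 310 and 510 (0.76). Foxa2, a hepatocyte factor, was at 783 and 489 (-0.64). The steroidogenic factor gene Nr5a1 had 2 and 0 reads.

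Markers of some cells other than hepatocytes also differed between the libraries. Of 7 evaluated cholangiocyte and ductular markers 5 were higher and 0 lower, and the list's summed FPKM was 16.7 in the control and 75.7 in the knockout. Krt19 (4 and 70 reads) and Epcam (10 and 89) were near 0 in the control. Of 12 stellate cell and fibroblast markers 4 were higher and 0 lower, with summed FPKM 50.4 and 72.1. Of 12 macrophage markers 0 were higher and 1 was lower (Timd4, 74 and 32 reads, log2 ratio -1.16), with a median log2 ratio of -0.15 and summed FPKM 225 and 218. Of 10 sinusoidal endothelial markers 0 were past the rule, with a median of -0.14 and summed FPKM 114 and 102. The part of these cells in the Cyp17a1 difference was not tested.

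The 3β-hydroxysteroid dehydrogenase genes form a cluster on mm10 chromosome 3, all on the minus strand. Their classical products are dehydrogenase-isomerases that turn pregnenolone-type steroids into progesterone-type ones. In the mouse, Hsd3b5 encodes a member that works as a ketosteroid reductase instead and is known as a male-specific liver gene. Coding sequences of Hsd3b2, Hsd3b3 and Hsd3b5 each have 1119 bases. Aligned end to end, Hsd3b2 and Hsd3b3 were 95.1% identical, Hsd3b2 and Hsd3b5 80.7%, and Hsd3b3 and Hsd3b5 79.9%.

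**Figure D3:**
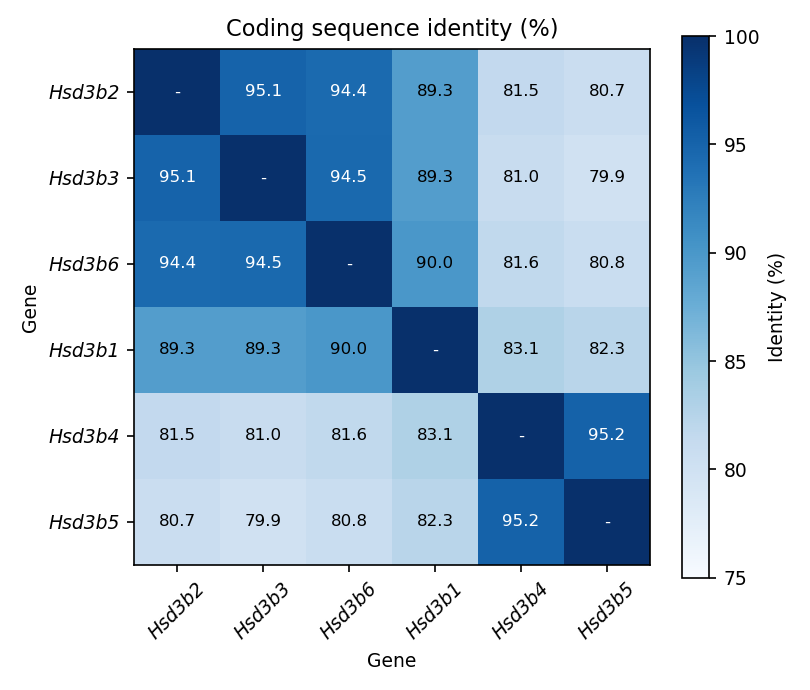
Percent identity of coding sequences between 6 genes of the 3β-hydroxysteroid dehydrogenase cluster (both axes), from global alignments of GENCODE coding sequences. Hsd3b2, Hsd3b3 and Hsd3b6 are within 94.4% to 95.1% of each other, and Hsd3b5 is closest to Hsd3b4 (95.2%).

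A stretch of these coding sequences shows where reads can best tell the 3 copies apart. It was read from GENCODE transcripts of the mm10 build, and capitals mark positions where the 3 genes are not all the same. Many of the capitals set only Hsd3b5 apart. The 75-base stretch with the fewest such positions, coding bases 994 to 1068, held 4, and Hsd3b2 and Hsd3b3 were identical over it. The 75-base stretch with the most differences, coding bases 576 to 650, held 41 of the 250 positions that differ over the whole coding sequence:
Hsd3b2 (chr3:98711978-98712052, minus strand): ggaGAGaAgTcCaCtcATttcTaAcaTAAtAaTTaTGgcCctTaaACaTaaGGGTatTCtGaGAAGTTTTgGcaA
Hsd3b3 (chr3:98742356-98742430, minus strand): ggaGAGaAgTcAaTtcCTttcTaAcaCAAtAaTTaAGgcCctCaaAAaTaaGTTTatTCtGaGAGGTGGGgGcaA
Hsd3b5 (chr3:98619479-98619553, minus strand): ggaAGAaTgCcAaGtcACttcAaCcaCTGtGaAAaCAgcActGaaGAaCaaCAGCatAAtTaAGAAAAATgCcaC

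Hsd3b3 (ENSMUSG00000062410, 98741523 to 98763127) had 2127 control and 1025 knockout reads (FPKM 26.8 and 13.2). The control library was the higher, and the knockout level was 0.496 of it (95% interval 0.460 to 0.534), which is a log2 ratio of -1.01 and just past the rule. The interval reaches across 0.5. With upper-quartile scaling the call was lost (0 of 10 lower), and with a correction for gene length the log2 ratio was -0.94. That correction ordered genes by deposited length, which for Hsd3b3 includes the non-coding transcript. A correction by the length of the longest protein-coding transcript was not run.

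Hsd3b5 (ENSMUSG00000038092, 98618634 to 98630252) had 2956 and 1850 reads, or FPKM 154 and 98.1. It was lower in the knockout at 0.644 of the control level (95% interval 0.607 to 0.682), within 2-fold. Hsd3b2 (ENSMUSG00000063730, 98709255 to 98724543) went the other way, with 682 and 781 reads, FPKM 14.9 and 17.4, and a ratio of 1.18 (1.06 to 1.31). The FPKM of Hsd3b3 was therefore 1.80 times that of Hsd3b2 in the control and 0.758 times in the knockout. This crossing depends on the deposited length of Hsd3b3. Per longest protein-coding transcript Hsd3b3 lay above Hsd3b2 in both libraries, at 112 against 14.9 in the control and 54.9 against 17.4 in the knockout. The sources used here do not say how reads matching several places were counted. Of the 50-base stretches annotated to Hsd3b2, 26.9% also occur in another gene, most often Hsd3b3, against 8.73% for Hsd3b3 and 21.2% for Hsd3b5. At 100 bases the shares were 8.28%, 4.67% and 7.79%. These shares count any other gene, so they do not measure how well these copies separate from each other. Of 995 shared 50-base stretches of Hsd3b2, 405 occur in Hsd3b3. For Hsd3b3, 405 of 557 occur in Hsd3b2. For Hsd3b5, 273 of 318 occur in Gm10681, a neighbouring gene listed at 0 reads. How far reads of these copies were mixed was not measured.

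The other cluster members gave little signal. Hsd3b1, the adrenal and gonadal form in the mouse, had 1 and 0 reads, Hsd3b4 had 3 and 3, and Hsd3b6 had 0 in both. All of the 50-base stretches of Hsd3b4 also occur in the neighbouring gene Gm10681, which was listed at 0. Hsd3b7, a relative on chromosome 7 that serves bile acid synthesis, was listed at 0 in both libraries. Of its exon bases 99.2% overlap other annotated genes, among them Gm49388 on the same strand, also listed at 0, so its expression cannot be read from this table.

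Promoters of the 3 expressed copies are shown because coding and promoter likeness did not run the same way. They are RefSeq sequences of the GRCm38.p6 build, from 250 bases before to 50 bases after an annotated start. In Hsd3b3 and Hsd3b5 capitals mark bases that match between both in a local alignment, and in Hsd3b2 those that match Hsd3b3:
Hsd3b3 (chr3:98763079-98763378, minus strand): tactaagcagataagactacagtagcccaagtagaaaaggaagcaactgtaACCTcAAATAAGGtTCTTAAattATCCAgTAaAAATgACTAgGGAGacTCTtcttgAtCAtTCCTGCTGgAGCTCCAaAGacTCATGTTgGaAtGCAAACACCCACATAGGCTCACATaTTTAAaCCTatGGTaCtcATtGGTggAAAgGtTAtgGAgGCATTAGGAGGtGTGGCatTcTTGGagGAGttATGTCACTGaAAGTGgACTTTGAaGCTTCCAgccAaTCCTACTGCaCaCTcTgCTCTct
Hsd3b5 (chr3:98645485-98645784, minus strand): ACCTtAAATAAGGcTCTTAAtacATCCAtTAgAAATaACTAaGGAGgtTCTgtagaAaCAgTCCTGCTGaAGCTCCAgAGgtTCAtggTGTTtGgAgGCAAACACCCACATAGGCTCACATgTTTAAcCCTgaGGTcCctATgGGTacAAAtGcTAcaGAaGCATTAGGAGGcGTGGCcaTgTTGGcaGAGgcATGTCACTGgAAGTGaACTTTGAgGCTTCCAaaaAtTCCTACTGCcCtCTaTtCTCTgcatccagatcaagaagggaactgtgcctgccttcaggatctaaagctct
Hsd3b2 (chr3:98724494-98724793, minus strand): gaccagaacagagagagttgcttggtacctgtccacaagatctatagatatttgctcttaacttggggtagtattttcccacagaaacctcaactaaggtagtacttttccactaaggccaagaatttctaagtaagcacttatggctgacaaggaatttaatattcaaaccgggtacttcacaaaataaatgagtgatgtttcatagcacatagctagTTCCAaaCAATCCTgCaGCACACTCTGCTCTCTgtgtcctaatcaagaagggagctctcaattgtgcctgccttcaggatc
The Hsd3b3 and Hsd3b5 promoters aligned over 250 columns with 75.2% identity, whereas the best local alignment of Hsd3b3 with Hsd3b2 covered 33 columns (87.9%) and that of Hsd3b5 with Hsd3b2 81 columns (74.1%). Hsd3b3 and Hsd3b5 were the pair with lower knockout levels and Hsd3b2 the copy with a higher one. This comparison was chosen after the values were seen and rests on 3 genes, and a link of promoter likeness to direction was not tested. The RefSeq start of Hsd3b5 lies 15282 bases upstream of the start of the deposited gene model, while those printed for Hsd3b2 and Hsd3b3 lie within 1 base of it. RefSeq lists another Hsd3b3 start, 717 bases from the deposited one, which is not printed.

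Motifs were searched on both strands of the promoters of 8 of the 10 genes. Cyp17a1 and Hsd17b2 had no RefSeq promoter here and were not searched. The Hsd11b1 window lies 21715 bases from the start of the deposited gene model. TTCNNNGAA is the palindrome bound by STAT factors such as the growth hormone effector STAT5. It occurred in none of the promoters of the 8 genes and in 8.30% of all 32851 mouse promoters of the same length. AGGTCA, the half-site of many nuclear receptors, occurred in that of Hsd17b13, and in 16.3% of all promoters. CCCTCCC, a C-rich run of the kind hnRNP K binds, occurred in that of Srd5a1 at 2 places, and in 22.0% of all promoters. The motifs were absent from these windows for the 3 Hsd3b genes, which says nothing of sites elsewhere.

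The 17β-hydroxysteroid dehydrogenases interconvert estradiol with estrone and testosterone with androstenedione, and several members act mainly on other substrates. Hsd17b2 oxidises estradiol and testosterone to their weaker keto forms. The gene (ENSMUSG00000031844, chromosome 8, 117701904 to 117759027, plus strand) had 1905 control and 3069 knockout reads (FPKM 79.7 and 131). It was higher in the knockout at 1.66 times the control level (95% interval 1.56 to 1.76), within 2-fold.

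Hsd17b6 encodes a microsomal enzyme of the retinol dehydrogenase type that oxidises androstanediol. The gene (ENSMUSG00000025396, chromosome 10, 127990936 to 128007611, minus strand) had 1088 and 556 reads, or FPKM 55.6 and 29.0. It was lower in the knockout at 0.526 of the control level (95% interval 0.474 to 0.583), just short of the rule, and at a log2 ratio of -1.04 it was past the rule after the correction for gene length. Of its 50-base stretches 12.1% also occur in another gene, mostly Rdh1, which had 0 and 1 reads. The FPKM of Hsd17b2 was 1.43 times that of Hsd17b6 in the control and 4.52 times in the knockout.

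Hsd17b13 encodes a lipid droplet protein of hepatocytes. The gene (ENSMUSG00000034528, chromosome 5, 103955440 to 103977410, minus strand) had 3828 and 4030 reads, or FPKM 143 and 153. It was nearly level, at 1.08 times the control (95% interval 1.04 to 1.13). Its relative Hsd17b11, also a lipid droplet enzyme, had 2121 and 1988 reads (log2 ratio -0.05), and their coding sequences were 64.9% identical.

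Of the 5 other evaluated members of the family 0 were past the rule, with a median log2 ratio of 0.04. The peroxisomal enzyme gene Hsd17b4 was at 5977 and 5373 reads, the fatty acid elongation gene Hsd17b12 at 2387 and 2379, the mitochondrial Hsd17b10 at 2131 and 2182, and Hsd17b7, which also serves cholesterol synthesis, at 557 and 698 (0.37). Hsd17b1, which makes estradiol in the ovary, had 4 and 13 reads and was below the expression minimum. The testicular gene Hsd17b3 had 0 in both, and Hsd17b14 had 1 and 0.

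Srd5a1 encodes a steroid 5α-reductase, which removes a ring double bond of testosterone, progesterone and glucocorticoids. The gene (ENSMUSG00000021594, chromosome 13, 69573449 to 69611442, minus strand) had 1464 and 1274 reads, or FPKM 40.5 and 36.0. It was slightly lower in the knockout, at 0.895 of the control level (95% interval 0.830 to 0.966). On the same strand 476 of its exon bases, 16.4%, overlap Gm17108, and reads there cannot be told apart. Akr1d1, the 5β-reductase that acts on the same bond and in bile acid synthesis, had 2400 and 2138 reads (log2 ratio -0.13). The other reductases were scarce, Srd5a2 with 18 and 31 reads and Srd5a3 with 79 and 106.

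Akr1c6 encodes an aldo-keto reductase that reduces androstenedione to testosterone in mouse liver. The gene (ENSMUSG00000021210, chromosome 13, 4434306 to 4457877, plus strand) had 10617 and 12535 reads, or FPKM 420 and 506. It was somewhat higher in the knockout, at 1.21 times the control level (95% interval 1.18 to 1.25). Of 6 evaluated genes of its family, itself included, 0 were past the rule. Their median log2 ratio of 0.09 became -0.04 with Akr1c6 left out. Akr1c13 was at 1115 and 1329 reads (0.29), Akr1c20 at 887 and 1010 (0.23), Akr1c12 at 1014 and 958 (-0.04), Akr1c19 at 1249 and 1108 (-0.13), and Akr1c14, which reduces dihydrotestosterone, at 5936 and 5228 (-0.14). Akr1c18, an enzyme that breaks down progesterone in the mouse ovary, had 0 control and 7 knockout reads and was not evaluated, nor were Akr1c21 (4 and 5 reads) and Akr1cl (0 in both). Akr1c6 and Akr1c20 coding sequences were 92.3% identical, yet 1.39% of the 50-base stretches of Akr1c6 were shared.

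Hsd11b1 encodes the enzyme that regenerates active glucocorticoid from its keto form in liver. The gene (ENSMUSG00000016194, chromosome 1, 193221634 to 193264075, minus strand) had 5868 and 4349 reads, or FPKM 111 and 84.0. It was lower in the knockout at 0.762 of the control level (95% interval 0.733 to 0.793), within 2-fold. H6pd, which supplies the NADPH that drives this reaction in the endoplasmic reticulum, was also below the control, at 6598 and 5340 reads (log2 ratio -0.26). Hsd11b2, which inactivates glucocorticoid in kidney, had 0 reads in both.

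Glucocorticoid response genes did not share a direction. Of 13 evaluated targets 1 was higher, 0 were lower and the median log2 ratio was -0.06. The higher gene was Lcn2, which is also an acute phase gene (83 and 183 reads, 1.18). Zbtb16 (1087 and 662, -0.67), Fkbp5 (4794 and 3059, -0.61) and Per1 (997 and 655, -0.57) were below the control within 2-fold. Among those above it within 2-fold were Pck1 (38796 and 46967, 0.32) and Sgk1 (317 and 366, 0.25). Tat, the tyrosine aminotransferase gene of classical glucocorticoid induction, was at -0.06. The receptor gene Nr3c1 was at 1177 and 1110 reads (-0.04), and Serpina6, which encodes the plasma corticosteroid carrier, at 1843 and 1283 (-0.48).

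**Figure D4:**
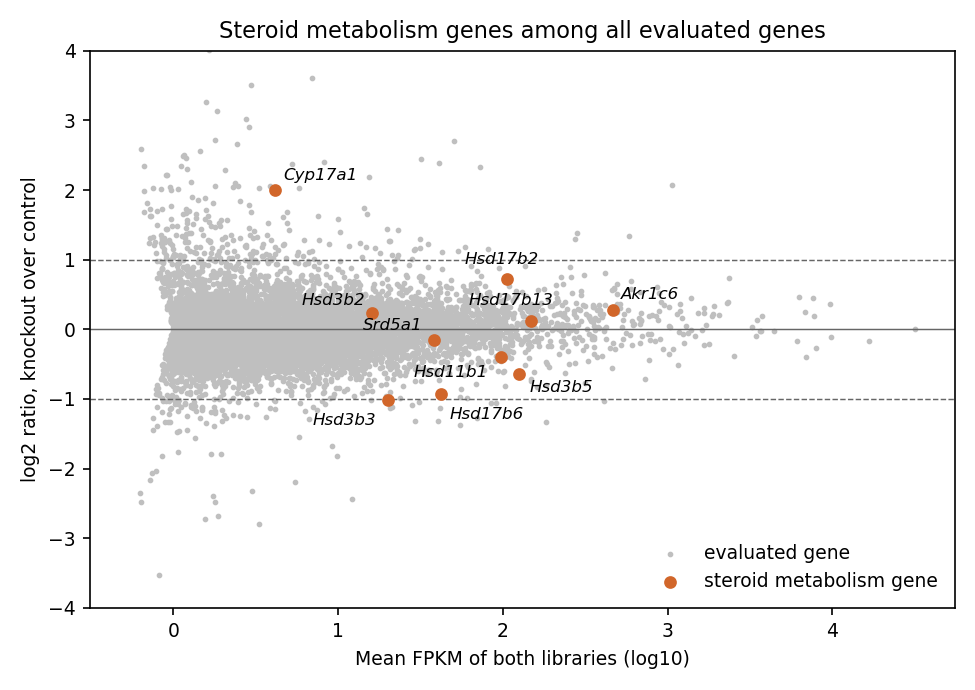
Log2 ratio of knockout over control (vertical axis) against log10 mean FPKM of both libraries (horizontal axis) for evaluated genes (grey) and the 10 steroid metabolism genes (orange). Dashed lines mark 2-fold, 7 evaluated genes lie beyond the vertical axis, and Cyp17a1 stands at 2.0.

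Other enzymes of steroid metabolism were mostly within 2-fold. Over 8 lists of such enzymes, 41 genes besides the 10 were evaluated, 1 was higher (2.44% past the rule, beside 3.66% of all evaluated genes) and 0 lower, with a median log2 ratio of 0.04. The higher gene was the estrogen sulfotransferase Sult1e1, with 13 and 33 reads (95% interval of the ratio 1.34 to 5.41). Cyp21a1, named above, had the lowest log2 ratio at -0.99. The expression minimum left out another 26 listed genes, 15 of them with 0 reads in both libraries, including Sult2a1 to Sult2a6.

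Hydroxylating P450s and conjugating enzymes had medians above 0. The 8 evaluated P450s had a median log2 ratio of 0.52 with 0 past the rule, among them Cyp39a1 (268 and 477 reads, 0.87), the testosterone hydroxylase Cyp2d9 (15185 and 23922, 0.70), Cyp3a11 (35374 and 49962, 0.54) and, below 0, the oxysterol and androgen hydroxylase Cyp7b1 (6091 and 4067, -0.54). The 13 evaluated conjugating genes had a median of 0.39, with the glucuronosyltransferase Ugt2b5 at 8817 and 12785 reads (0.58) and Ugt1a1 at 397 and 294 (-0.39). After the gene length correction these medians were 0.46 and 0.30.

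Among receptor genes, the estrogen receptor gene Esr1 had 294 and 182 reads (log2 ratio -0.65), within 2-fold.

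**Figure D5:**
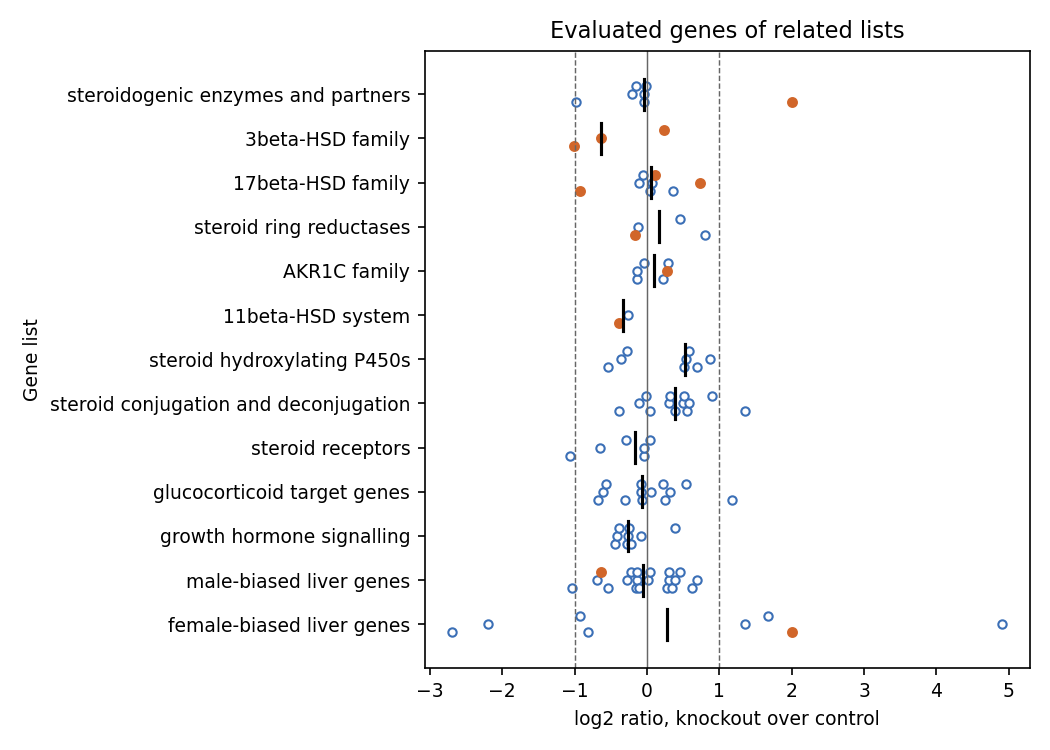
Log2 ratio of knockout over control (horizontal axis) for evaluated genes of 13 related lists (vertical axis), with the 10 steroid metabolism genes filled in orange, other genes open in blue, and a black bar at each list's median. Dashed lines mark 2-fold, and the P450 and conjugation lists have medians of 0.52 and 0.39.

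Cyp17a1 is counted among female-biased and Hsd3b5 among male-biased mouse liver genes. Sex is not in the labels, and 4 Y-linked genes (Ddx3y, Eif2s3y, Kdm5d and Uty) had between 208 and 1117 reads in each library. Of 20 evaluated male-biased genes 0 were higher and 1 was lower (Mup21, 4663 and 2221 reads, of a gene family whose sequence sharing was not measured here). Their median log2 ratio was -0.05, or 0.01 without Hsd3b5. Of 8 evaluated female-biased genes 4 were higher, 2 were lower and the median was 0.27. Without Cyp17a1, 3 of 7 were higher and 2 lower, and the median turned to -0.81. Beside Cyp17a1 the higher ones were Ntrk2, a neurotrophin receptor gene (8 and 248 reads), Atp6v0d2 (19 and 60) and Sult1e1. Ntrk2 lies on chromosome 13 (58806569 to 59133970), near the targeted gene Hnrnpk (58391142 to 58403343). The part of this position in the Ntrk2 difference was not tested. The lower ones were Cyp2c69 (69 and 10) and Cyp2c40 (227 and 48), which are close copies. The female-specific sulfotransferase Sult2a1 and the P450 Cyp2b13 had 0 reads in both libraries.

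Genes of growth hormone signalling were within 2-fold in 9 of 9 evaluated, with a median log2 ratio of -0.26 (-0.14 after the gene length correction). The receptor gene Ghr had 7784 and 6390 reads (-0.24), its effector gene Stat5b 557 and 513 (-0.08), and the feedback genes Cish 350 and 256 (-0.41) and Socs2 333 and 270 (-0.26).

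Zonal hepatocyte genes gave no common direction beside these values. Of 8 evaluated pericentral genes 0 were past the rule (median 0.06), and of 12 periportal genes, which include Hsd17b13, 1 was higher (Cdh1, 254 and 602 reads) and the median was 0.00, or -0.03 without Hsd17b13.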

How the data were processed

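The authors deposited 1 table with a read count and an FPKM value per gene and library. Bowtie2 2.4.2 and mm10 are named, per the submitters' processing notes. The sources used here name no counting program, annotation or strand setting. The deposited FPKM values equalled count, gene length and column total combined in 21936 of 21936 genes (relative tolerance 1e-06). The deposited counts were scaled by column totals times TMM factors (1.004 and 0.996) from edgeR 4.0.16 in R 4.3.3. Log2 ratios had 0.5 added, and ratios had nothing added. Analyses used Python 3.11.15, pandas 2.3.3, scipy 1.17.1 and biopython 1.88, and were tested on simulated data. Some items are not reported here. Exon overlaps, transcripts and coding sequences came from GENCODE M21, whose coordinates and lengths equalled the table's for all 10 genes, and promoters from RefSeq.

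The members and lists were chosen with earlier results of these data known. Named genes were the 10 members, Hnrnpk, and per list the genes past the size rule, the largest differences and the one nearest 0. Close family members, adrenal markers and Y-linked genes were given whatever their level. Named for their role, direction or overlap after their values were seen were Tat, Por, Esr1, Socs2, Per1, Pck1, Sgk1, Nr3c1, Atp6v0d2, Hsd11b2, Cyp19a1, Foxa2, Cyp7b1, Cyp3a11, Cyp2b13, Ugt2b5, Ugt1a1, Ghr, Zbtb16, Sult2a1 to Sult2a6, Rdh1, Gm10681, Gm17108 and Gm49388. Without molecular identifiers, reads are not independent molecules, so intervals cover counting error only. Alternatives covered scaling (DESeq2 1.42.0 size factors among them), gene length, pseudocount, expression minimum and fold limit.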

Additional observations from a re-analysis of the deposited data

How the results depend on the processing

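No paired analysis was possible because each genotype has 1 library. Over 7 alternatives each, the 10 log2 ratios gave 70 values, of which 65 stayed inside the counting interval, and none changed sign. The others were Akr1c6 at 0.34 with upper-quartile scaling and 0.19 after the length correction, which also gave -0.75 for Hsd3b5, 0.62 for Hsd17b2 and 0.034 for Hsd17b13. Cyp17a1 kept a log2 ratio of 1.92 to 2.05 in all 7 alternatives. These are not 7 separate checks. The ratio of deposited FPKM values repeats the scaling by column totals, and a larger pseudocount can hardly move genes with many reads. Of the 10 genes 0 were lower with upper-quartile scaling and at 3-fold, and 2 were higher and 3 lower at 1.5-fold. Under the length correction, which rests on the deposited lengths, the 1 lower gene was Hsd17b6 in place of Hsd3b3.

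Over all genes, the counts of 242 higher and 108 lower became 2054 and 995 with no expression minimum, 71 and 34 with FPKM at least 5, 589 and 514 at 1.5-fold, and 80 and 22 at 3-fold. For other listed pathway genes, 4 higher and 4 lower became 12 and 13, 1 and 2, 11 and 12, and 2 and 2 under the same settings. These shifts follow from the number of genes admitted or the limit itself. Depth limits Cyp17a1 most, at 57 control reads. No value here has a check between mice.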
